A study of Mus musculus with 16 samples.

Results

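The Schlafen genes encode a family of proteins first described in developing mouse T cells, where several of them slow growth, and many are induced by interferons. Every member carries an N-terminal domain related to RNA-processing enzymes, and the long members add a helicase-like C-terminal part. Schlafen proteins act on RNA: relatives of the long mouse members cut transfer RNA, and SLFN2 binds transfer RNA and shields it from cleavage during T cell activation. In myeloid cells Slfn2 supports the quiescence and survival of monocytes, and Slfn4 is a gene of activated macrophages and of myeloid cells in inflamed tissue.

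The family was followed here in neutrophils sorted from mouse liver. Its members were the 7 genes Slfn1, Slfn2, Slfn3, Slfn4, Slfn5, Slfn8 and Slfn9, found by their symbols in the annotation among 54532 genes listed, of which 25008 had a count and 9851 passed the filter on low counts. All 7 were in the table and 6 were tested; Slfn3 did not pass the filter. RNA came from 8 C57BL/6 chimeras, numbered 2 to 9. Wild-type hosts, irradiated with about 1000 cGy, were rebuilt over 8 weeks from equal parts (50% each) of 2 marrows. The Ifngr1-/- marrow carried CD45.2 and the wild-type marrow CD45.1. All then carried MC38 flank tumours, from a mouse colon carcinoma line, and were given a CD40 agonist (aCD40) 1 week later, and livers were taken 2 days after that. Each mouse gave 1 WT library and 1 Ifngr1_KO library, so there were 8 of each and 16 in all. Ifngr1 encodes the ligand-binding chain of the receptor for interferon gamma (IFN-gamma), and the comparison asks what changes in neutrophils that lack it while they share a liver with wild-type cells. No untreated group is among these samples, and the labels used here state no age. The genotypes also differed in donor, in CD45 form and in the gate they were sorted by, and these cannot be told apart from loss of the receptor.

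Levels are given in CPM (counts per 1e6 counts of a library, scaled between libraries by TMM), and fold changes as Ifngr1_KO over WT on the log2 scale. A gene is called where edgeR's quasi-likelihood test with mouse as a block gave a Benjamini-Hochberg adjusted p under 0.05 over all 9851 genes. Totals were 13.1 to 21.7 M counts in WT and 12.5 to 16.9 M in Ifngr1_KO. Ifngr1 itself was lower in Ifngr1_KO in 8 of 8 mice, with 305 ± 46.6 CPM (WT) against 83.9 ± 29.5 CPM (Ifngr1_KO; SD, n = 8) and no overlap. The share of mitochondrially encoded mRNA was 0.294 to 1.19% in WT and 0.475 to 2.50% in Ifngr1_KO, higher in Ifngr1_KO in 6 of 8 mice. The Ifngr1_KO library of mouse 7 stood apart, with the highest mitochondrial share and the lowest median correlation with the other libraries (0.762). Neutrophil markers were high in every library (summed level of 8 markers 31700 to 54300 CPM in WT and 27300 to 83400 CPM in Ifngr1_KO). None of the 8 was called by edgeR (1 lower at an unadjusted p under 0.05, 0 by DESeq2, 1 lower by limma-voom). Without mouse 7, edgeR called 1 of them lower.

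The genes lie in 1 cluster on chromosome 11 (GRCm38, 82942341 to 83286726), in the order Slfn5, Slfn9, Slfn8, the pseudogene Slfn10-ps, Slfn2, Slfn1, Slfn4, Slfn3 and Slfn14. Slfn1 and Slfn2 are short, with 337 and 378 annotated codons; Slfn4 and Slfn3 are intermediate, with 602 and 640; Slfn5 has 884, and Slfn8 and Slfn9 have 910 each. Over aligned coding bases Slfn8 and Slfn9 were 92.7% identical and Slfn3 and Slfn4 92.2%, while Slfn1 and Slfn2 were 71.0% identical and Slfn5 was 55.9 to 60.9% identical to the other 6 members.

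All 7 members had a RefSeq window (GRCm38.p6) from 250 bases before to 50 bases from the annotated start. The motifs were searched on both strands. They were the IFN-gamma activated site TTCNNNGAA and the core of the interferon response element, GAAA then any 2 bases then GAAA, bound by interferon regulatory factors. The other was ACTTCCTG, which holds the ETS-factor core also recognised by the myeloid factor PU.1. ACTTCCTG was chosen after the sequences had been read. No member had TTCNNNGAA in its window, against 8.30% of all 32851 windows. The response element core was found in the long members Slfn5, Slfn8 and Slfn9 and in no other member, against 3.44% of all windows. ACTTCCTG was found in the short and intermediate members Slfn1, Slfn2, Slfn3 and Slfn4 and in no other member, against 3.33% of all windows. As these letters were picked from the same windows, that share does not test their count. Windows of close copies, such as Slfn8 and Slfn9, are also not independent of each other. A match is a description of letters, not a binding site, and a missing match says only that these letters are not in the window.

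The 4 windows printed whole belong to the members whose TMM-scaled levels differed between genotypes in 1 direction in 8 of 8 mice. Capitals mark ACTTCCTG in the first, the second and the third, and the response element core in the last. They lie on the plus strand at chr11:83064862-83065161 (Slfn2), chr11:83116570-83116869 (Slfn1), chr11:83174936-83175235 (Slfn4) and chr11:82951852-82952151 (Slfn5).
Slfn2: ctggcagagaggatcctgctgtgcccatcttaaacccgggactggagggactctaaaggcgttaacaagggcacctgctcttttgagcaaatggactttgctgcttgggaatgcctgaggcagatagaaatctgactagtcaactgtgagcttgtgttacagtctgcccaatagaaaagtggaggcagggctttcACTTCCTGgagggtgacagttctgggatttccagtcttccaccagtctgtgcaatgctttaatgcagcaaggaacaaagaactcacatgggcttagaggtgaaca
Slfn1: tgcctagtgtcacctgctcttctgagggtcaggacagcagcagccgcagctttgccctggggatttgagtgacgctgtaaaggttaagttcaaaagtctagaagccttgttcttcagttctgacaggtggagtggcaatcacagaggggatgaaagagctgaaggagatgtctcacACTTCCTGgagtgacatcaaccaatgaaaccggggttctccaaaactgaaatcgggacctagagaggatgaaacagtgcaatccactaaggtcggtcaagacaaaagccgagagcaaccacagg
Slfn4: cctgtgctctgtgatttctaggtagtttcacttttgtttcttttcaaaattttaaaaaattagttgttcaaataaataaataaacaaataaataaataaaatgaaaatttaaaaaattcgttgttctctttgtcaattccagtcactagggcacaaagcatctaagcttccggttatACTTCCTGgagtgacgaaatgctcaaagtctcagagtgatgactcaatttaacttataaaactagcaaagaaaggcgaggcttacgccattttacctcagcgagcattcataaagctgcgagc
Slfn5: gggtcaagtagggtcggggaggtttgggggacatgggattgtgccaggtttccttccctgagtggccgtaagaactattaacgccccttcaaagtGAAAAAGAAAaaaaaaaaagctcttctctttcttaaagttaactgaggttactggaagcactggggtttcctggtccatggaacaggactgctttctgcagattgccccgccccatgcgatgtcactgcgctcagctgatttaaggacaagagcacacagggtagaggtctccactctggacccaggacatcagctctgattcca
The marked letters start 55 bases before the annotated RefSeq start in Slfn2, 74 in Slfn1, 73 in Slfn4 and 155 in Slfn5. The GENCODE span of Slfn5 begins further upstream, at 82951349, so its window and marked letters lie inside that span.

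Stretches of the close pair Slfn8 and Slfn9 are shown because they carry the same response element core, marked in capitals on the reverse strand, 48 and 45 bases before the start (136 before the other annotated start of Slfn8). They lie on the minus strand at chr11:83020814-83020893 and chr11:82991831-82991910.
Slfn8: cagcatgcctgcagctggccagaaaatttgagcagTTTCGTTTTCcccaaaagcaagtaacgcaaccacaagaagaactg
Slfn9: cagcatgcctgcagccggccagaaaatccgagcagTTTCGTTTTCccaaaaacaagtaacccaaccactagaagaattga

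**Figure D1:**
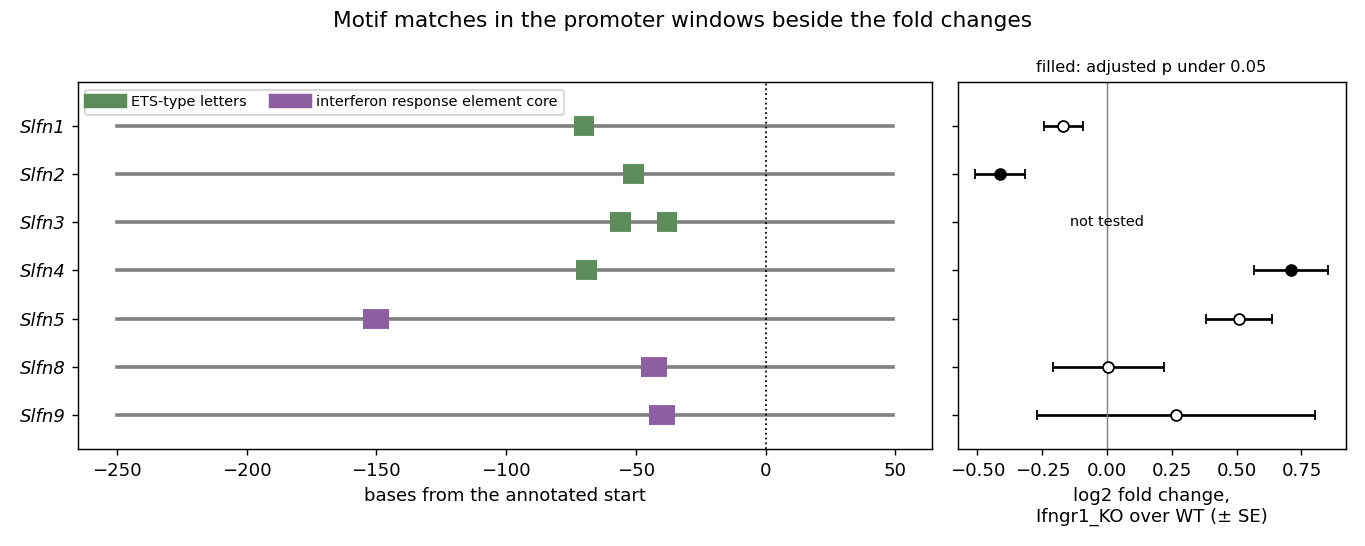
Left, positions of ACTTCCTG (ETS-type letters) and of the interferon response element core in the promoter window of each Schlafen member, in bases from the annotated start; for Slfn8 the first of its windows is drawn. Right, log2 fold change ± SE of the same genes, Ifngr1_KO over WT, filled where the adjusted p is under 0.05. ETS-type letters mark Slfn1 to Slfn4 and the response element core marks Slfn5, Slfn8 and Slfn9, and filled points are Slfn2 and Slfn4.

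Liver neutrophils of both genotypes expressed 5 of the 7 members well. The order of levels per kb of exon in WT was Slfn2 (1062 ± 195 CPM per kb), Slfn1 (521 ± 48.9), Slfn4 (120 ± 52.0), Slfn8 (38.7 ± 12.01), Slfn5 (32.9 ± 11.6), Slfn9 (1.03 ± 0.650) and Slfn3 (0.174 ± 0.111; SD, n = 8 for each). The libraries of neighbours in this order did not overlap, except those of Slfn8 and Slfn5 and those of Slfn9 and Slfn3. In Ifngr1_KO Slfn5 (46.1 ± 12.1 CPM per kb) stood before Slfn8 (39.3 ± 12.2), again with overlapping libraries, and the order was otherwise the same. The 7 members summed to 3588 ± 616 CPM in WT libraries, against 3393 ± 348 CPM without the receptor (SD, n = 8). The Ifngr1_KO sum was 0.815 to 1.10 times the WT sum of the same mouse and above it in 2 of 8 mice. Slfn2 supplied 49.2 ± 3.74% of the family's CPM in WT and 38.8 ± 2.76% in Ifngr1_KO, Slfn4 12.9 ± 3.10% and 22.04 ± 4.42%, and Slfn5 5.71 ± 1.34% and 8.58 ± 2.09%.

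Without the receptor, the members of the family moved in opposite directions. Slfn4 rose and Slfn2 fell, so 2 of 6 tested members were called, against 2.80% of all 9851 genes. Neither was called without the mouse block (1 lower and 2 higher members at an unadjusted p under 0.05 by edgeR) or with the mitochondrial share as a covariate (0 and 1), a share that was higher in Ifngr1_KO in 6 of 8 mice; its part in the result was not tested beyond that fit. By direction, 1 of 6 was higher (0.477% of all genes were called higher) and 1 of 6 was lower (2.32% called lower). Scaled by library totals, 102 genes were higher and 164 lower, against 47 and 229 with TMM. The members' median log2 fold change was 0.14, beside 0.046 over all genes. With TMM scaling Slfn1 was also lower and Slfn5 also higher in 8 of 8 mice, but neither was called. No member had WT and Ifngr1_KO libraries that did not overlap, against 1.65% of all genes. In bulk RNA, a change in the level per cell and a change in the mix of sorted cells cannot be told apart.

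**Figure D2:**
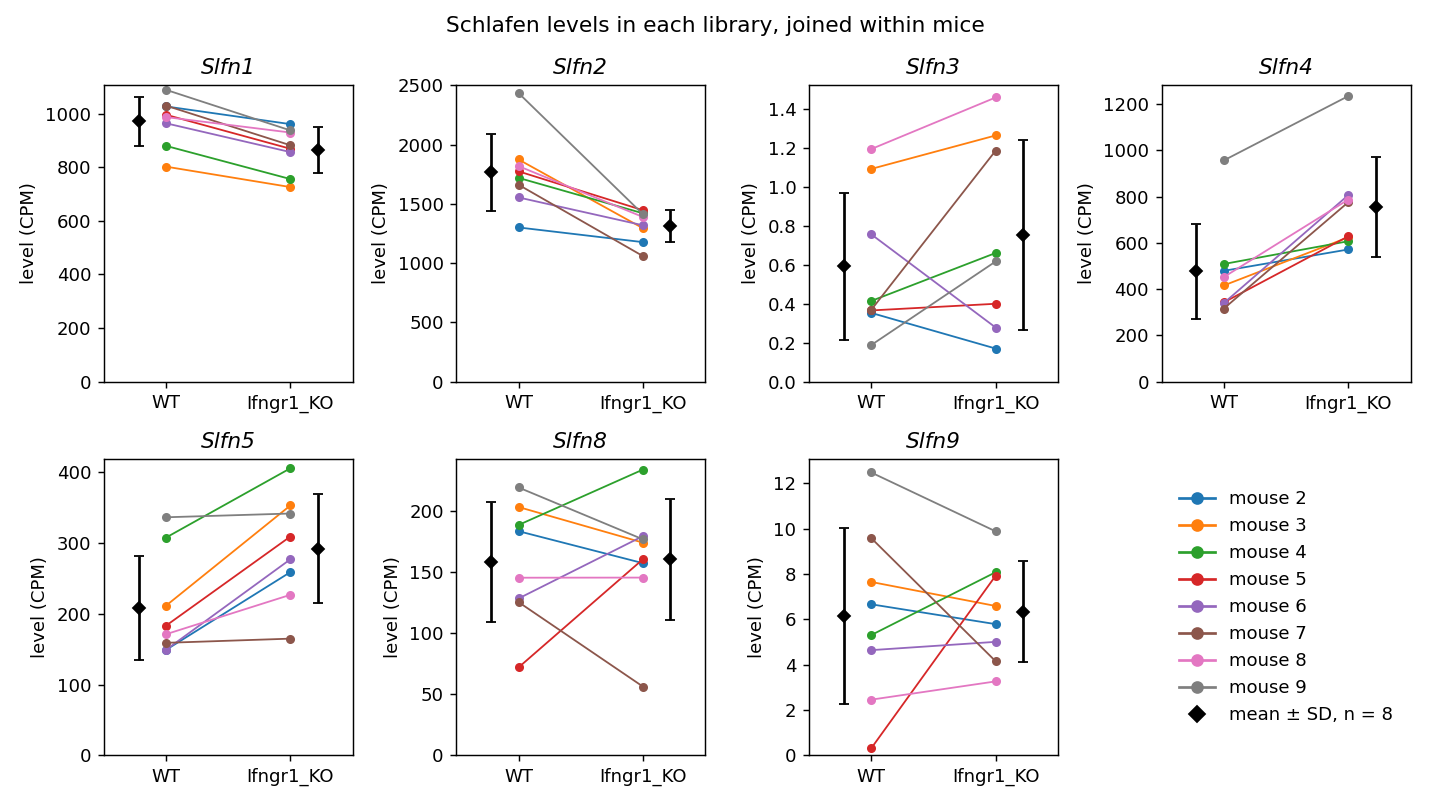
Level of each Schlafen member in CPM in the WT and Ifngr1_KO library of each mouse; lines join the libraries of 1 mouse and diamonds are the mean ± SD of 8 libraries. All lines fall for Slfn1 and Slfn2, all rise for Slfn4 and Slfn5, and they cross for Slfn3, Slfn8 and Slfn9.

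Slfn2 (ENSMUSG00000072620, chromosome 11, 83065112 to 83070678, plus strand), the short member that protects transfer RNA, was the most abundant. From mouse 2 to mouse 9 its WT level was 1301, 1874, 1719, 1774, 1554, 1661, 1818 and 2434 CPM. Its Ifngr1_KO level in the same order was 1177, 1294, 1420, 1446, 1319, 1059, 1389 and 1412 CPM. The Ifngr1_KO libraries lay in a narrow band, and the lowest WT library, of mouse 2, fell within it. The mean of Slfn2 fell from 1767 ± 324 to 1315 ± 135 CPM (SD over 8 libraries), with a log2 fold change of -0.41 (SE 0.10, 95% interval -0.63 to -0.20, edgeR adjusted p = 0.0486). It was lower in 8 of 8 mice, but 13 of 17 alternative fits did not call it, among them 7 that left out a mouse (edgeR adjusted p = 0.0724 to 0.162); without mouse 7 it was called. With the mitochondrial share as a covariate the log2 fold change was -0.25 (SE 0.13, edgeR adjusted p = 0.857).

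Slfn1 (ENSMUSG00000078763, 83116849 to 83122670, plus strand), the founding short member that arrests growth when overproduced in T cells, was the next in level. Its WT libraries ran from 802 to 1089 CPM with a median of 992, and its Ifngr1_KO libraries from 726 to 961 CPM with a median of 876. With TMM the difference was small and even: the within-mouse log2 change lay between -0.22 and -0.09 in all 8 mice. The log2 fold change was -0.17 (SE 0.08, 95% interval -0.34 to -0.003, edgeR adjusted p = 0.295), so it did not pass the test over all genes. Scaling moved it, to -0.06 with library totals in place of TMM. The single sign in 8 of 8 mice rests on TMM and does not hold with library totals. In mouse 2, Slfn1 had 20324 of 18.5 M counts in WT and 16921 of 15.3 M in Ifngr1_KO, not a lower share.

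Slfn4 (ENSMUSG00000000204, 83175186 to 83190216, plus strand), the intermediate member of activated macrophages, was higher in Ifngr1_KO in every mouse. From mouse 2 to mouse 9 its WT level was 479, 416, 509, 343, 340, 316, 452 and 956 CPM. Its Ifngr1_KO level in the same order was 571, 624, 607, 628, 806, 776, 787 and 1234 CPM. Both libraries of mouse 9 were far above the others of their group, and apart from that mouse the WT libraries (316 to 509 CPM) lay below all Ifngr1_KO libraries (571 to 806 CPM), a comparison made after the values were seen. The mean of Slfn4 rose from 476 ± 206 to 754 ± 215 CPM (SD over 8 libraries), with a log2 fold change of 0.71 (SE 0.14, 95% interval 0.39 to 1.03, edgeR adjusted p = 0.0247), in 8 of 8 mice. Without the mouse block it was 0.66 (SE 0.22, edgeR adjusted p = 0.137), and with the mitochondrial covariate 0.39 (SE 0.19, adjusted p = 0.785). Leaving out mouse 3, 5, 6 or 8 gave edgeR adjusted p of 0.0749, 0.0710, 0.0757 and 0.0787, and the rise was called without each of the other 4 mice, mouse 7 and mouse 9 included.

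Slfn3 (ENSMUSG00000018986, 83191330 to 83215154, plus strand), the close copy of Slfn4 that is known from gut epithelium and T cells, was barely present. It had 3 to 17 counts per WT library and 3 to 21 per Ifngr1_KO library, and no test was made. Of the 31-base words in Slfn4 transcripts, 12.9% also occur in Slfn3 and 8.72% in Gm11427. For Slfn2, 10.8% of its words occur in other genes, and 6.98% occur in Slfn4. Summing Slfn3 and Slfn4 before the fit left the log2 fold change at 0.71 (edgeR adjusted p = 0.0247). Slfn4 had at least 4284 counts per library, so adding the few counts of Slfn3 could hardly move the fit. Gm11427 was not added.

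Slfn5 (ENSMUSG00000054404, 82951349 to 82964840, plus strand), a long member found in the nucleus, was higher in every mouse. From mouse 2 to mouse 9 its WT level was 149, 211, 307, 183, 149, 159, 171 and 336 CPM. Its Ifngr1_KO level in the same order was 259, 353, 405, 309, 277, 165, 227 and 341 CPM. Mice 7 and 9 showed nearly equal levels in both genotypes (within-mouse log2 changes of 0.05 and 0.02), while the other 6 had changes of 0.40 to 0.89. Mean levels were 208 ± 73.3 CPM (WT) and 292 ± 76.5 CPM (Ifngr1_KO; SD, n = 8), and the log2 fold change was 0.51 (SE 0.13, 95% interval 0.23 to 0.79, edgeR adjusted p = 0.0645), which missed the threshold. Without mouse 7 it was 0.57 (SE 0.11, edgeR adjusted p = 0.0218); DESeq2 and limma-voom, which called more genes in all, gave 0.52 with adjusted p of 0.00659 and 0.0154. The antisense gene Slfn5os overlaps Slfn5, and the libraries do not mark strand; it stood at 9.18 ± 3.45 and 9.31 ± 4.45 CPM (SD, n = 8), with 7.99% of the 31-base words of Slfn5 shared with it.

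Slfn8 and Slfn9, long members of the clade whose human relatives cut transfer RNA, showed no direction. Slfn8 (ENSMUSG00000035208, 83002158 to 83020810, minus strand) ran from 72.1 to 220 CPM in WT, with a median of 165, and from 56.4 to 234 CPM in Ifngr1_KO, with a median of 168. Its log2 fold change was 0.01 (SE 0.22, 95% interval -0.47 to 0.48, edgeR adjusted p = 0.991), and it was higher in 4 of 8 mice. Slfn9 (ENSMUSG00000069793, 82978390 to 82991830, minus strand) had 6 to 199 counts per WT library and 47 to 128 per Ifngr1_KO library, or 6.14 ± 3.88 and 6.34 ± 2.22 CPM (SD, n = 8). Its log2 fold change was 0.27 (SE 0.54, 95% interval -0.92 to 1.46, edgeR adjusted p = 0.841), and -0.12 without mouse 5. Slfn8 shares 19.1% of its 31-base words with Slfn9 and 18.7% with Slfn10-ps, so the division of reads among them is uncertain; summed, the 3 genes had a log2 fold change of 0.02 (edgeR adjusted p = 0.973).

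The other annotated family genes added little. Slfn10-ps, the pseudogene beside Slfn8, had 0 to 41 counts in WT libraries and 0 to 60 in Ifngr1_KO libraries. Slfn14, known from platelets and red cells, at the end of the cluster, and Slfnl1, on chromosome 4, had no count in any of the 16 libraries, which allows up to 0.254 CPM in the library with the highest floor (3 counts; counting error only).

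Whether members differed from each other was tested within mice, since an excess of 1 gene's change over another's in the same libraries does not depend on the scaling between libraries. For each of 15 pairs of the 6 tested members, the difference in within-mouse log2 change was put to an exact two-sided sign-flip test over 8 mice, adjusted over the 15 pairs; the smallest p that 8 mice allow is 0.00781. Slfn4 exceeded Slfn2 by 1.12 ± 0.49 on the log2 scale in 8 of 8 mice, a difference of -1.12 for Slfn2 minus Slfn4 (SD, n = 8, exact p = 0.00781, adjusted p = 0.0234). Slfn2 minus Slfn5 was -0.92 ± 0.21, with every mouse between -1.27 and -0.67, and it was the tightest of the larger differences. Slfn1 minus Slfn4 was -0.88 ± 0.43 and Slfn1 minus Slfn5 -0.68 ± 0.32 (SD, n = 8), each with the same sign in 8 of 8 mice, exact p = 0.00781 and adjusted p = 0.0234. The 2 short genes differed as well: Slfn1 minus Slfn2 was 0.24 ± 0.20 (SD, n = 8, exact p = 0.00781, adjusted p = 0.0234), with the more negative change in Slfn2 in 8 of 8 mice. With 1 sign in 8 of 8 mice, leaving out a mouse cannot change the sign count of these 5 pairs, and the p stays the smallest that the design allows, so only the sizes are informative. With each mouse left out in turn, Slfn2 minus Slfn4 lay between -1.23 and -1.01, Slfn2 minus Slfn5 between -0.96 and -0.87, and Slfn1 minus Slfn2 between 0.20 and 0.27.

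The remaining 10 pairs did not pass. Slfn4 minus Slfn5 was 0.20 ± 0.53 (SD, n = 8, exact p = 0.336, adjusted p = 0.504, 95% interval -0.24 to 0.65), so their changes were not told apart. Slfn4 minus Slfn8 and Slfn5 minus Slfn8 were 0.70 ± 0.82 and 0.50 ± 0.54 (SD, n = 8), each with exact p = 0.0312 and adjusted p = 0.0670; without mouse 5 the latter was 0.63 (exact adjusted p = 0.0391). The pairs that include Slfn9 had SDs of 1.08 to 1.66 and give little information.

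**Figure D3:**
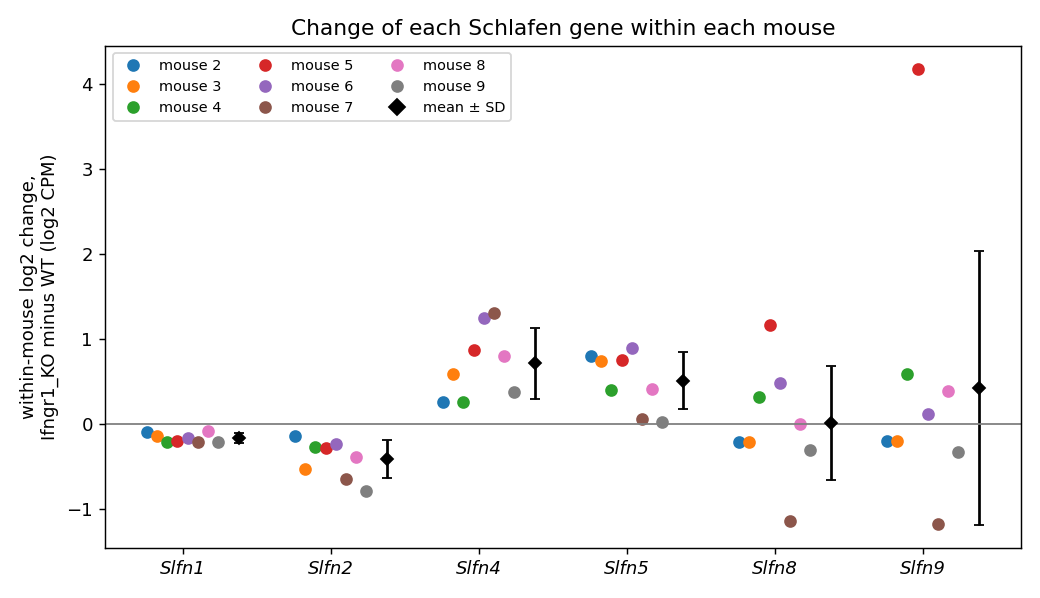
Within-mouse log2 change (Ifngr1_KO minus WT, log2 CPM with a prior count of 2) of each tested Schlafen member, 1 point per mouse, with the mean ± SD over 8 mice. Slfn1 and Slfn2 lie below 0 and Slfn4 and Slfn5 above 0 in every mouse, while Slfn8 and Slfn9 lie on both sides and mouse 5 reaches 4.18 for Slfn9.

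After each group mean was subtracted, Slfn2 and Slfn5 had a Pearson correlation of 0.73 over the 16 libraries, although their fold changes between genotypes had opposite signs. Slfn5 and Slfn8 had 0.70, Slfn8 and Slfn9 0.65, Slfn2 and Slfn4 0.48, and Slfn1 and Slfn2 -0.02. These values are descriptions: libraries come in pairs from 1 mouse and share depth, scaling and RNA quality. In the WT library of mouse 5, Slfn9 had 6 counts and Slfn8 its lowest WT level (72.1 CPM). Slfn8 also shares 19.1% of its 31-base words with Slfn9. The part of that library and of shared words in the correlations of Slfn9 was not tested. Among 5157 eligible genes (mean log2 CPM 3 or more), those most like Slfn2 were Il1b, which encodes interleukin 1 beta (0.90), Ifi207 (0.88) and Schip1 (0.86). Those most like Slfn5 were Acod1, the itaconate-producing enzyme (0.88), Ifit1bl1 (0.87) and Il1b (0.87); Acod1 and Ifit1bl1 fell in Ifngr1_KO, by log2 fold changes of -0.94 and -0.89. Slfn8 was closest to Igsf6 (0.95), Rel (0.91) and Riok2 (0.91), Slfn4 to Srsf5 (0.87), AC160336.1 (0.85) and Lilrb4a (0.84), Slfn1 to Nmt1 (0.90), Snapc5 (0.83) and Neat1 (0.83), and Slfn9 to Jtb (0.90), Gpalpp1 (0.87) and Siglec1 (0.85).

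The cluster's surroundings on chromosome 11 held 1 other called gene. Of 19 tested genes within 500000 bases on either side of the cluster or lying among its genes, 1 was lower and none was higher. Over all genes 2.32% were called lower and 0.477% higher, so a count of 1 is not read as a trait of the surroundings. The lower one was Ccl5, a chemokine gene beyond Slfn14, with a log2 fold change of -3.29 (SE 0.23, edgeR adjusted p = 1.56e-05). The span of Gm20234, on the minus strand, overlaps that of Slfn2; it had a log2 fold change of 0.81 (SE 0.21, edgeR adjusted p = 0.0771) at a WT level of 12.4 CPM. Its sign is opposite to that of Slfn2. The libraries do not mark strand, so reads from where both spans overlap cannot be assigned by strand.

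**Figure D4:**
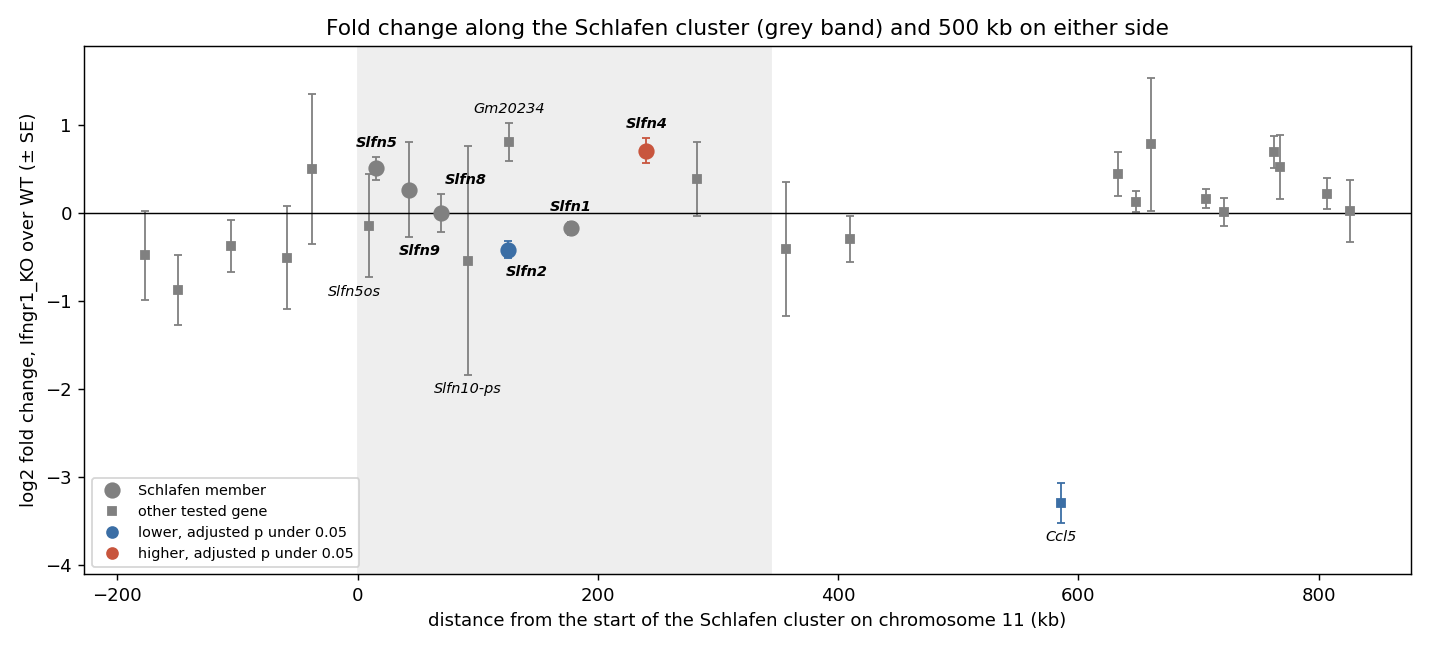
Log2 fold change ± SE (Ifngr1_KO over WT) of tested genes against their distance in kb from the start of the Schlafen cluster on chromosome 11; circles are Schlafen members, squares other genes, and colour marks an adjusted p under 0.05. Slfn2 (lower) and Slfn4 (higher) lie within the cluster, and Ccl5, at -3.29, lies outside it.

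The pathways around the family changed in part. Over all 9851 genes, edgeR called 2.32% lower and 0.477% higher. DESeq2 called 572 genes lower and 488 higher among 9660. Of 12 genes of IFN-gamma receptor signalling 3 fell and none rose (median log2 fold change -0.28; 4 lower by DESeq2), among them Ifngr1 and the transcription factor gene Irf1. Irf1 had 2478 ± 677 CPM (WT) and 482 ± 155 CPM (Ifngr1_KO; SD, n = 8; log2 fold change -2.40, SE 0.19). Of 11 genes of type I interferon receptor signalling 2 fell and none rose (median -0.37; 5 lower by DESeq2): Stat2, with -1.18 (SE 0.19), and Irf2, with -0.90 (SE 0.10). With the mitochondrial covariate Stat2 was not called, at -0.73 (edgeR adjusted p = 0.525), nor was Irf2, at -0.86 (0.0534).

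Among 19 interferon-induced genes that act on RNA or translation, which share that activity with the Schlafen proteins, 2 fell and none rose (median -0.21; 7 lower by DESeq2). These were Ifit1bl1 (-0.89, SE 0.16) and Zc3hav1, the zinc finger antiviral protein (-0.67, SE 0.13). With 1 mouse left out, Ifit1bl1 was called in 6 of 8 fits and Zc3hav1 in 3 of 8. Neither was called with the mitochondrial covariate, at -0.76 (edgeR adjusted p = 0.524) and -0.40 (0.734). Over all genes 2.32% were called lower.

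Genes of transfer RNA processing and cleavage gave no call by edgeR among 11 tested (median 0.29; 1 at an unadjusted p under 0.05, and 1 higher by DESeq2 and by limma-voom). Rnh1, the inhibitor of angiogenin-type ribonucleases, had 285 ± 37.4 CPM (WT) and 321 ± 36.9 CPM (Ifngr1_KO; SD, n = 8), and Tsen34, a subunit of the splicing endonuclease, at 17.2 ± 12.6 and 34.6 ± 19.6 CPM. The summed level of the list was 326 to 387 CPM in WT and 370 to 445 CPM in Ifngr1_KO, higher in 8 of 8 mice. Most of that sum was Rnh1, which was higher in 6 of 8 mice and not called (edgeR adjusted p = 0.401). Other tested genes of the list had changes of both signs, such as 0.43 for Trnt1 and -0.43 for Rtcb, neither of them called. The sum is therefore not a rise of the whole list. Of 13 tested genes of quiescence and G1 cyclins 1 rose and none fell (median 0.43, 3 higher by DESeq2). Over all genes 0.477% were called higher. The gene that rose was Btg2, an antiproliferative gene, from 1134 ± 260 to 2078 ± 484 CPM (SD, n = 8). Its log2 fold change was 0.87 (SE 0.10, edgeR adjusted p = 6.94e-04).

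Other cell types known to express Schlafen genes were measured by their markers. The 12 T and NK cell markers together made up 9.03 to 21.0 CPM in WT and 6.53 to 29.8 CPM in Ifngr1_KO, and none of the 4 tested was called by edgeR (0 at an unadjusted p under 0.05, 0 by DESeq2). The 6 B cell markers summed to 13.0 to 37.9 and 19.4 to 65.2 CPM, with none of 5 called by edgeR (0 at an unadjusted p under 0.05, 0 by DESeq2). The sum of the monocyte and macrophage list was lower in Ifngr1_KO in 8 of 8 mice. Its 12 markers made up 2260 to 3560 CPM in WT and 1510 to 2680 CPM in Ifngr1_KO. Most of that came from Csf1r (mean 1497 CPM in WT, 1287 in Ifngr1_KO) and Ly6c2 (1212 and 741). Of 9 tested, 2 fell, Ly6c2 (log2 fold change -0.73, SE 0.12) and Adgre1 (-1.11, SE 0.19). Over all genes 2.32% were called lower. Csf1r was not called (-0.31, edgeR adjusted p = 0.532). Nor were C1qa (-0.165), C1qb (-0.08), C1qc (-0.17), Cx3cr1 (0.07), Ccr2 (0.59) or Ms4a7 (-1.26). The Kupffer cell marker Vsig4 was at 0 in all 16 libraries. No gene of the hepatocyte (8 tested), endothelial (3) or platelet and erythroid (6) lists was called by edgeR (1, 0 and 0 lower at an unadjusted p under 0.05; 0 by DESeq2). The part of these cells in the Slfn2 and Slfn4 differences was not tested.

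**Figure D5:**
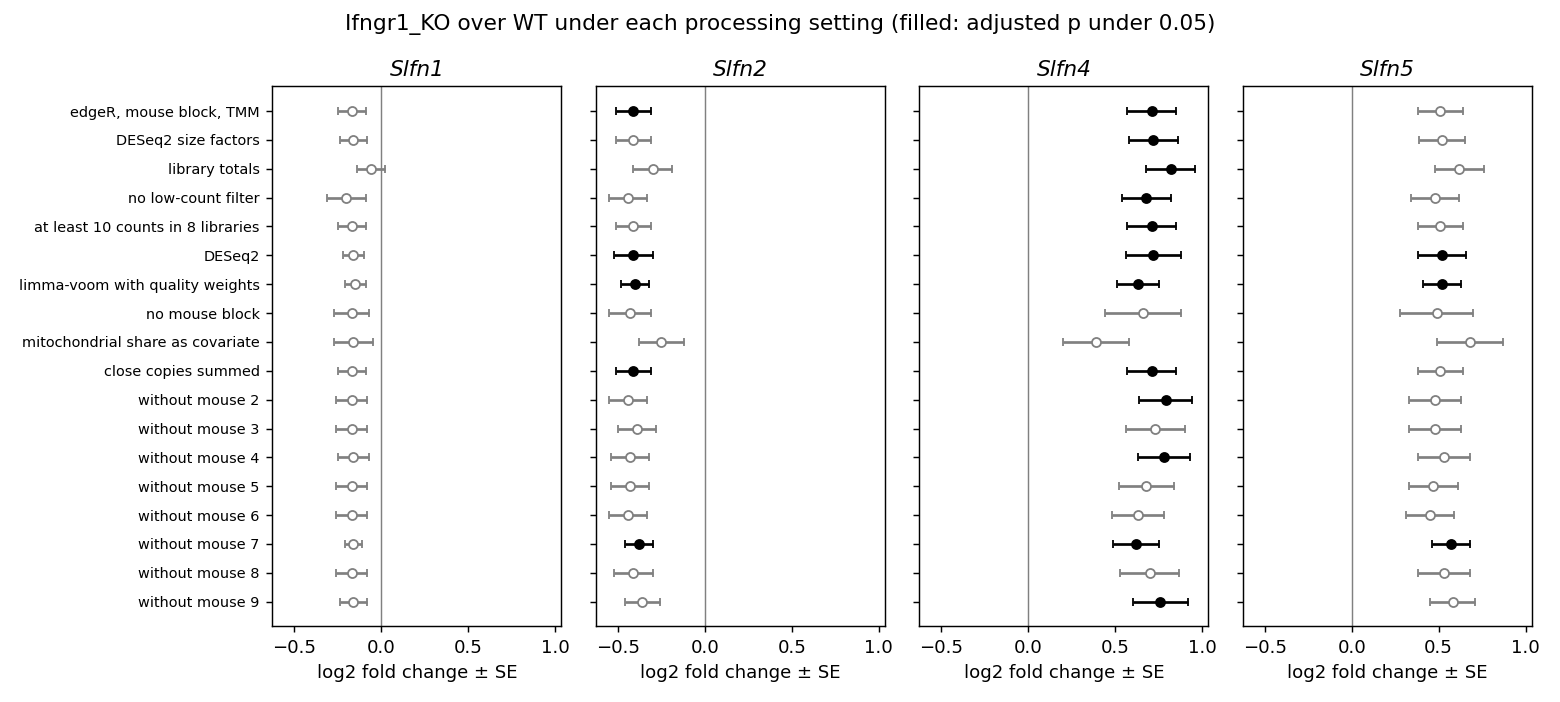
Log2 fold change ± SE of Slfn1, Slfn2, Slfn4 and Slfn5 (Ifngr1_KO over WT) under each processing setting, filled where the adjusted p is under 0.05. Every value lies below 0 for Slfn1 and Slfn2 and above 0 for Slfn4 and Slfn5, and whether Slfn2 and Slfn4 are called depends on the setting.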

How the data were processed

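The authors deposited expected counts (estimated counts, as whole numbers) for each Ensembl gene in 16 samples, not scaled between them. Salmon 0.14.2, DESeq2 1.22.1 and the build mm10 are named in the submitters' processing notes; the transcript annotation is not given in the sources used here. Per the labels' protocols, libraries came from 1 ng of RNA by oligo-dT SMART-Seq with 13 PCR cycles; this chemistry has no molecular identifiers and is unstranded. Names, positions and exon lengths came from GENCODE M21 (GRCm38); 37 identifiers had no name.

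In R 4.3.3, edgeR 4.0.16 fitted all genes kept by filterByExpr (99.7% of counts) with TMM, mouse as a block and robust quasi-likelihood. Pairing comes from the series design, which takes samples of 1 number from 1 mouse; deviations from group means correlated at 0.138 within mice (0.0246 to 0.314) and -0.018 between mice. SE was derived from the F statistic. DESeq2 1.42.0 and limma 3.58.1 were alternatives. Log2 CPM used a prior count of 2. The test was tried on simulated counts. Members, lists and tests were chosen with earlier results of these data known. Named genes were all members and relatives, Ifngr1, per list up to 4 called genes with the smallest p or else the 2 highest, the 3 genes most correlated with each member, and called genes within 500000 bases of the cluster. Motifs and shared 31-base words were counted with Python 3.11.15, and coding bases aligned with Biopython 1.88. A gene that the rule names is not reported here.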

Additional observations from a re-analysis of the deposited data

Results flagged for a closer look

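In each group of 8 values, the gap between the most extreme value and its nearest neighbour was compared with the whole range; a share above Dixon's 95% critical value singles it out, and chance gives about 1 such group in 20. Of 30 groups examined for the family, Slfn10-ps, Slfn5os and Ifngr1, 4 held such a value. Slfn4 in the WT library of mouse 9 was at 956 CPM, against 509 in the next highest, and in the Ifngr1_KO library of the same mouse at 1234 CPM, against 806. The within-mouse log2 change of Slfn9 in mouse 5 was 4.18, against 0.59 in the next highest, and its WT library there had 6 counts. The within-mouse log2 change of Slfn5os in mouse 7 was -5.38, against -0.43 in the next lowest, and its Ifngr1_KO library there had 1 count.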

How the results depend on the processing

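Slfn1 and Slfn2 kept a negative and Slfn4 and Slfn5 a positive log2 fold change in all 17 alternative fits. Calls did not hold as well. The fall of Slfn2 was not called with DESeq2 size factors (-0.41), library totals (-0.30), no low-count filter (-0.44), a minimum of 10 counts in 8 libraries (-0.41), no replicate block (-0.43) or the mitochondrial covariate (-0.25), and had -0.44 to -0.36 with 1 mouse left out. The rise of Slfn4 was not called with no replicate block (0.66) or the mitochondrial covariate (0.39), and had 0.62 to 0.79 with 1 mouse left out. Slfn5 was called by DESeq2 (0.52) and limma-voom (0.52), and had 0.45 to 0.58 with 1 mouse left out. Members called lower were therefore 0 in those 6 settings and 0 to 1 with a mouse left out; members called higher were 2 by DESeq2 and limma-voom, 0 in the last 2 settings and 0 to 2 with a mouse left out. At an unadjusted p under 0.05 edgeR had 2 lower and 2 higher members, 1 and 2 without the block, and 0 and 1 with the covariate. Over all genes, 229 lower and 47 higher became 572 and 488 with DESeq2, 425 and 172 with limma-voom, 65 and 4 with the covariate, 144 to 334 and 19 to 78 with a mouse left out, 102 higher with library totals and 31 higher without a filter. The median over all genes was 0.046, and 0.157 with library totals. When mouse 7 was left out, 412 genes were called, 264 of them shared with the 276. Levels per kb of the longest transcript stayed within 1 SD. Depth limits Slfn3, Slfn9 and Slfn10-ps.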
